A study of Mus musculus with 2 samples.

Results

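Among 16229 DPPA2 peaks mapped on the assembled chromosomes of mouse embryonic stem cells after 8 h of adriamycin, 221 (1.36%, interval 1.19 to 1.55) lay at an end of a long non-coding RNA (lncRNA) gene and away from protein-coding genes. A peak was taken when its summit, the position with most overlapping fragments, was within 1000 bp of either end of a lncRNA gene in the RefSeq annotation, more than 1000 bp from every end of a protein-coding gene, and outside the body of every protein-coding gene. The same rule found 72 of 7043 peaks (1.02%, interval 0.801 to 1.29) in untreated cells. The rule used position and annotation only, not the strength of a peak or its presence in the other library. In the adriamycin library 779 summits lay within 1000 bp of a lncRNA end, of which 377 were left out at a protein-coding end and a further 181 inside a protein-coding gene, against 285, 139 and 74 in the untreated library.

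Binding was mapped by ChIP-seq, in which DNA fragments bound by a protein are pulled down with an antibody and sequenced. Cells were of the line R1/E, mouse embryonic stem cells described in the design as p53+/+, kept on gelatin in medium with leukemia inhibitory factor, which holds them undifferentiated. The adriamycin group was 1 library from R1/E cells given adriamycin for 8 h, a step the labels describe as inducing apoptosis. Its genotype field holds the treatment in place of a genotype. The untreated group was 1 library from R1/E cells labelled WT and control. Adriamycin, or doxorubicin, is a topoisomerase poison that causes DNA breaks; its dose is not given in the sources used here. With 1 library per group there was no replicate spread, so no test was made and each difference is one between 2 libraries. Intervals are exact 95% intervals, Clopper-Pearson for shares and Poisson for fragment numbers, and cover counting error only.

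DPPA2, made in early embryos, pluripotent cells and the germline, binds DNA together with its partner DPPA4. In mouse embryonic stem cells the pair is known from CpG-rich promoters, where it takes part in keeping developmental genes free of DNA methylation, and from activating genes of the early embryo. lncRNAs are transcripts with no long reading frame; their genes often begin in less CpG-rich DNA than protein-coding genes and are often transcribed at low levels. A few have well known roles, such as Xist, which coats and silences an X chromosome, whereas most of those at the peaks described here are predicted genes known by a number alone.

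The promoters of 7 of these genes are shown. They are those of the peaks of highest fold at a start, the starts richest in CG and a known lncRNA of these cells. All but that of Gm41331 hold more CG than the median of 7 for starts with an adriamycin peak. Each runs from 250 bases before to 50 bases after a start listed by RefSeq (assembly GRCm38.p6), is written 5′ to 3′ in the direction of transcription, and has its CG dinucleotides in capitals. The first set holds the peaks of highest fold that cover a listed start: Gm41331 (chr15:60141661-60141960, plus strand, 3 CG), Gm51701 (chr9:123924898-123925197, plus strand, 14 CG, with the summit upstream of the printed bases) and Gm35407 (chr3:67753350-67753649, plus strand, 14 CG).
Gm41331: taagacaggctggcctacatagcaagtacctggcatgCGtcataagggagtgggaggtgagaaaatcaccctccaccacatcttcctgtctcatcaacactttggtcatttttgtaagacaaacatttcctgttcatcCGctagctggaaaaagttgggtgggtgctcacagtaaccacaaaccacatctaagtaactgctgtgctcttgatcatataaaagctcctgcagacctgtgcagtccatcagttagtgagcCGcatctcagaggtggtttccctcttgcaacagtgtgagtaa
Gm51701: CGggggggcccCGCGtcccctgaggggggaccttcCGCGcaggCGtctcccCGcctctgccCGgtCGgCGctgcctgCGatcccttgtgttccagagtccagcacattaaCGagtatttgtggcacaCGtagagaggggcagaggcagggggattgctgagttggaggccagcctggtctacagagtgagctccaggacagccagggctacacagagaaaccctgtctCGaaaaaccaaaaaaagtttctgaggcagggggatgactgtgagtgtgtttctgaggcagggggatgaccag
Gm35407: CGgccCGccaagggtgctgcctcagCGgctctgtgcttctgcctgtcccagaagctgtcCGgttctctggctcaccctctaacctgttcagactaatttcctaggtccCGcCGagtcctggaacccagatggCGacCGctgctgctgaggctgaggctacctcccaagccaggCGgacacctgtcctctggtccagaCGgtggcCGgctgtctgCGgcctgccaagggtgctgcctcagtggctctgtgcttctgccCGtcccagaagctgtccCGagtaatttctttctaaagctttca
The second set holds the starts with most CG among those with an adriamycin peak: E130102H24Rik (chr4:101356199-101356498, minus strand, 47 CG), 9430091E24Rik (chr8:111145449-111145748, minus strand, 46 CG) and 2310034G01Rik (chr19:46348939-46349238, minus strand, 46 CG).
E130102H24Rik: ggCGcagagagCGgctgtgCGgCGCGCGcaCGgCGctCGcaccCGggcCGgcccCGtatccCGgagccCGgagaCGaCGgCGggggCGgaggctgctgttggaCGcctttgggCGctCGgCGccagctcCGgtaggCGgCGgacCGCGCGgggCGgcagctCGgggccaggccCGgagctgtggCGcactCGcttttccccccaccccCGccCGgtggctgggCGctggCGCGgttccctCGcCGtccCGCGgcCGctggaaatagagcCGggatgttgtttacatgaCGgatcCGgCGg
9430091E24Rik: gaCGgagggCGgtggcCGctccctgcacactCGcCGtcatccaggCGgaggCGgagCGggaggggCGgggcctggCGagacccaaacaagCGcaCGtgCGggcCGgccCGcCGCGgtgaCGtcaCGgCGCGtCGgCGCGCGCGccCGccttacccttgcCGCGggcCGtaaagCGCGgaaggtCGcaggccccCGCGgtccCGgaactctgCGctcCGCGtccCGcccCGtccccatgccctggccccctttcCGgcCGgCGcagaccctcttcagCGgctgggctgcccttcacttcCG
2310034G01Rik: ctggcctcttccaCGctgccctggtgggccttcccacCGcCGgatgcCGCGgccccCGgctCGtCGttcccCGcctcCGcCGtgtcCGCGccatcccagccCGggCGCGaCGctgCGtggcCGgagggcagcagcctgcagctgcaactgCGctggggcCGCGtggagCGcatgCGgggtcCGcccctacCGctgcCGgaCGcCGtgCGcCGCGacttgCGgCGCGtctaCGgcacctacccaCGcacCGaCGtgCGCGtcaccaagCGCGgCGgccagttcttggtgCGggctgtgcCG
Tunar (chr12:105336743-105337042, plus strand, 30 CG), a lncRNA known for a part in pluripotency and neural differentiation of mouse embryonic stem cells, is shown as the member from the list of embryonic stem cell lncRNAs; its peak lies just downstream of the printed bases.
Tunar: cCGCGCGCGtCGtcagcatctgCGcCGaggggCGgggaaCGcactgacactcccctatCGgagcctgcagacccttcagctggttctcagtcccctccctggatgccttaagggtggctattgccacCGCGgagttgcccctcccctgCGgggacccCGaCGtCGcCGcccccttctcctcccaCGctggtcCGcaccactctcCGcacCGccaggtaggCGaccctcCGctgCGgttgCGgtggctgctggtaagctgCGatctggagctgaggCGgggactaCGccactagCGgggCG

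The peaks gathered within 250 bp of the starts of lncRNA genes and not within 250 bp of their far ends. Strand was known for the nearest gene of 174 of the 221 adriamycin peaks: 116 lay nearest a start, 58 nearest a far end, and 47 were at genes of unknown strand. In untreated cells the numbers were 35, 23 and 14. Of the adriamycin peaks nearest a start, 51 of 116 had their summit within 250 bp of it, against 12 of 58 at far ends. Untreated peaks had the same order, with 19 of 35 at starts and 4 of 23 at far ends. Summits at starts fell on either side, 50 upstream and 66 downstream in the adriamycin library, and 17 upstream and 18 downstream in the untreated library.

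**Figure D1:**
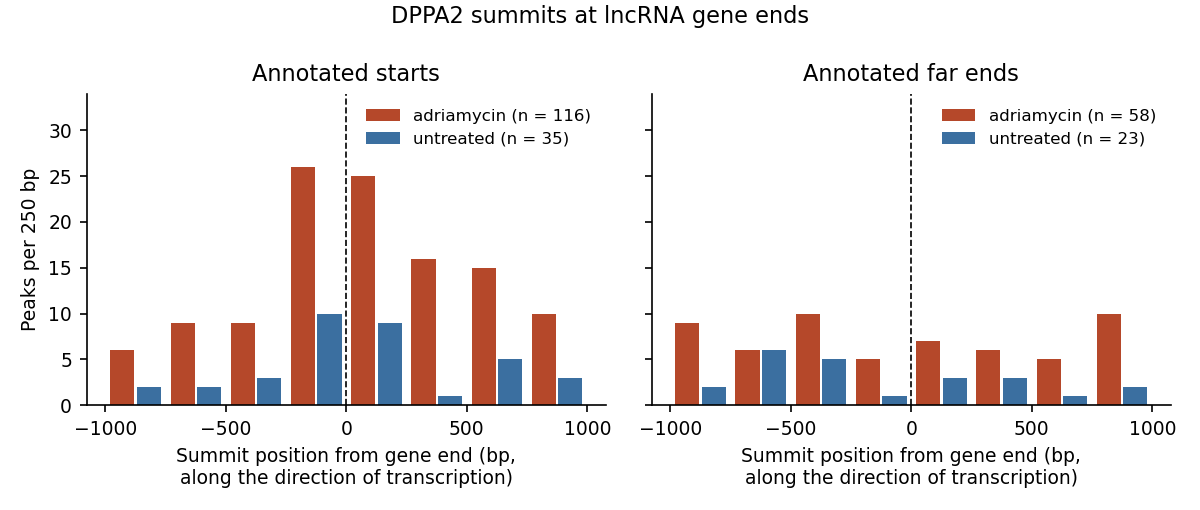
Number of DPPA2 peaks (vertical axis) by position of the summit from the nearest lncRNA gene end in bins of 250 bp (horizontal axis, along the direction of transcription), for starts on the left and far ends on the right. The bins on each side of a start hold 26 and 25 adriamycin peaks and 10 and 9 untreated peaks, against 5 and 7 adriamycin peaks and 1 and 3 untreated peaks at far ends.

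To allow for how much of the genome lies near a lncRNA end, the share of summits was divided by the share of bases. The annotated chromosome spans held 1635 Mb outside protein-coding genes and more than 1000 bp from their ends, of which windows of 1000 bp around lncRNA ends took 32.3 Mb (1.98%). Summits were limited in the same way, except that those beyond the annotated spans were not removed. Unsequenced bases within the spans were not taken out. Of the adriamycin summits outside protein-coding genes and more than 1000 bp from their ends, 221 of 7237 (3.05%) lay in the windows. This was a ratio of 1.55 (interval 1.35 to 1.76). Of the untreated summits so limited, 72 of 3653 (1.97%) lay in the windows, a ratio of 1.00 (interval 0.782 to 1.25). Within 250 bp of a start the ratio was 3.93 (interval 2.93 to 5.16) for adriamycin and 2.90 (interval 1.75 to 4.52) for untreated summits. Both were above 1, and the intervals of the libraries overlapped. With only peaks of fold 5 or more, the ratio was 2.98 (interval 1.93 to 4.39) for adriamycin and 1.98 (interval 0.906 to 3.75) for untreated summits, and the untreated interval held 1. Within 1000 bp of far ends the ratio was 1.09 (interval 0.843 to 1.39) for adriamycin and 0.799 (interval 0.512 to 1.19) for untreated summits, and both intervals held 1. By bin from far ends, the adriamycin ratio was 1.62 (interval 1.04 to 2.41) at 750 to 1000 bp. It was 0.703 (interval 0.505 to 0.953) at 1000 to 2000 bp and 1.19 (interval 1.03 to 1.37) at 2000 to 5000 bp. The adriamycin intervals of the other far-end bins held 1. Between 1000 and 2000 bp from any lncRNA end the ratio was 0.825 (interval 0.678 to 0.995) in adriamycin and 0.696 (interval 0.511 to 0.927) in untreated cells.

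**Figure D2:**
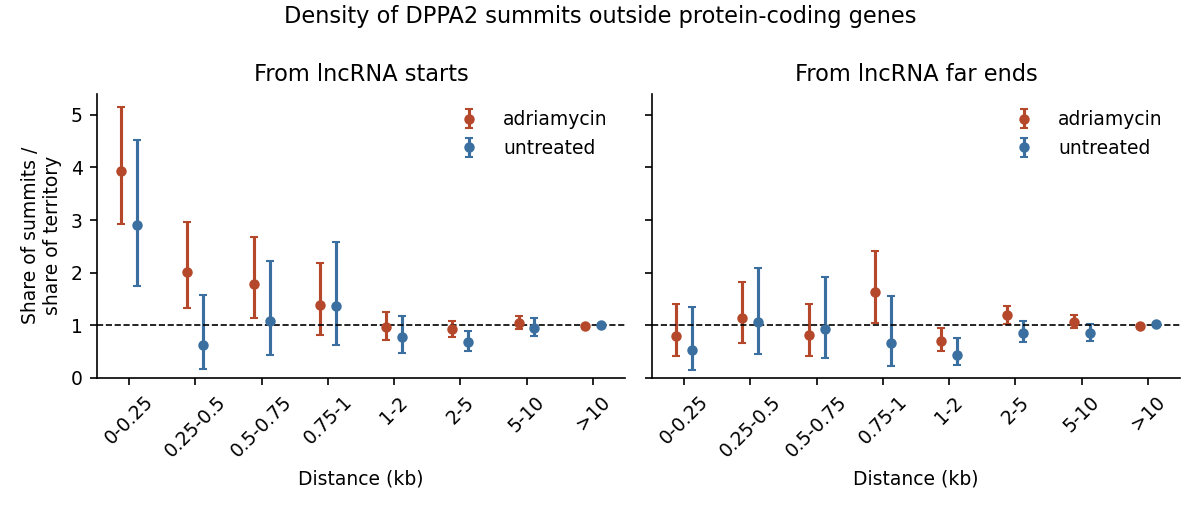
Share of summits over share of territory (vertical axis, no unit) by distance from lncRNA starts (left) and far ends (right) in kb (horizontal axis), with exact 95% intervals as bars and a dashed line at 1, where summits are as dense as over the whole territory. The bin nearest to starts stands at 3.93 in the adriamycin and 2.90 in the untreated library, and beyond 10 kb both libraries lie near 1.

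The 2 lists differ in length, and the excess of the adriamycin list in the 1000 bp windows was smaller among its strongest peaks. With the adriamycin list held to its 7043 peaks of highest −log10 q, 82 adriamycin peaks met the rule beside the 72 untreated peaks, and the ratio was 1.14 (interval 0.909 to 1.41) beside 1.00. At starts within 250 bp the ratio stayed high in that shortened adriamycin list, at 3.37, beside 2.90 in the untreated list.

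Counted by gene, 9738 of 12727 lncRNA genes had an end that the rule could reach. Of these 224 had an adriamycin peak (2.30%) and 75 an untreated peak (0.770%). Protein-coding genes had peaks at an end more often: 16.0% of 21887 in the adriamycin and 5.78% in the untreated library, where the rule does not ask for distance from other genes. Under the rule, 61 lncRNA genes had a peak in both libraries, 163 in the adriamycin library alone and 14 in the untreated library alone. A gene counted in 1 library alone can still have an overlapping peak whose summit lay beyond the limit in the other. This held for Gm42262, with an untreated summit at 1042 bp, and Gm52033, with an adriamycin summit at 1076 bp. Such counts are not given here for protein-coding genes. Shared genes were thus 27.2% of those with an adriamycin peak and 81.3% of those with an untreated peak. Predicted genes with a Gm number made up 179 of the 224, 31 had a Rik name, 5 a LOC number, 8 another name, and 1 was named for lying opposite a coding gene.

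Starts rich in CG dinucleotides held a peak more often than other starts in both libraries. The RefSeq promoter table listed a start for 5990 lncRNA genes whose start the rule could reach, and 1 start was taken per gene, the outermost one listed. For Tunar this is a start upstream of the one printed above. A start was called CpG-rich when its 300 bases had a GC content of at least 50% and an observed over expected CpG ratio of at least 0.6. An adriamycin summit lay within 1000 bp of 22 of 236 CpG-rich starts (9.32%, interval 5.93 to 13.8) and of 92 of 5754 others (1.60%, interval 1.29 to 1.96). For untreated summits the counts were 8 of 236 (3.39%, interval 1.47 to 6.57) and 32 of 5754 (0.556%, interval 0.381 to 0.784). In each library the intervals of CpG-rich and other starts did not overlap. With the adriamycin list held to the length of the untreated list, 3.81% of CpG-rich and 0.556% of other starts had an adriamycin summit, close to the untreated shares. Starts of one genome share sequence and annotation and are not replicates, so these shares are a description of the 2 libraries.

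Starts with more CG had a peak more often, as the plot by CG count shows, although bins of 10 to 19 and 20 to 29 CG were alike within their intervals (7.31% and 7.50% in adriamycin, 3.30% and 3.75% in untreated cells). With 1 to 4 CG, 1.03% of starts had an adriamycin and 0.353% an untreated summit. With 10 to 19 CG the intervals ran from 5.02 to 10.2% in adriamycin and from 1.82 to 5.48% in untreated cells. With 30 or more they were 9 of 34 (26.5%, interval 12.9 to 44.4) in the adriamycin and 2 of 34 (5.88%, interval 0.720 to 19.7) in the untreated library. Of the 510 starts with no CG, 1 had an adriamycin summit; none had an untreated summit, which allows a share of up to 0.588% at 3 counts of the total and up to 0.721% by the exact interval.

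**Figure D3:**
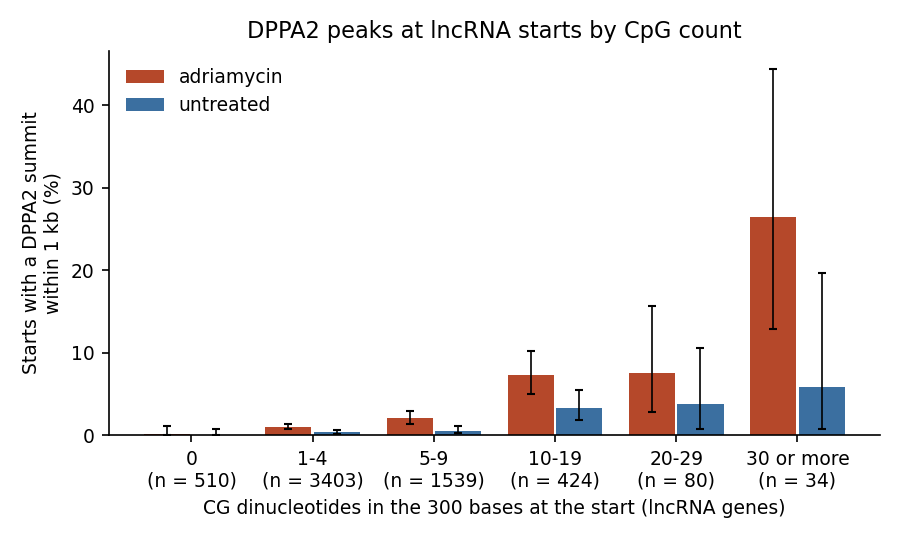
Percent of lncRNA starts with a DPPA2 summit within 1 kb (vertical axis) by number of CG dinucleotides in the 300 bases at the start (horizontal axis, number of genes below each bin); bars give the share and lines its exact 95% interval. The adriamycin bars stand at 1.03% for 1 to 4 CG and 26.5% for 30 or more, and the untreated bars at 0.353% and 5.88%.

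Starts with an adriamycin summit had a median of 7 CG and a GC content of 53.3% (n = 114), those with an untreated summit 9 CG and 52.3% (n = 40), and all 5990 starts 3 CG and 47.0%. Most lncRNA starts with a peak were still not CpG-rich: 22 of 114 (19.3%) were in the adriamycin and 8 of 40 in the untreated library, against 3.94% of all lncRNA starts and 45.7% of 17492 protein-coding starts.

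The same 300 bases were searched on both strands for short motifs. GGGCGG, the core letters of a GC box, which overlap the CpG count, stood in 29.8% of starts with an adriamycin summit, 22.5% of those with an untreated summit and 9.38% of all lncRNA starts. TATAAA, the letters of the classical core promoter box of that name, stood in 13.2%, 17.5% and 18.1% of the same sets. The p53 consensus decamer stood in 12 of 114 starts with an adriamycin summit (10.5%) and 0 of 40 with an untreated summit, which allows up to 7.50% at 3 counts of the total, against 658 of all 5990 lncRNA starts. Base composition can also set how many fragments a library holds at a site; no input library was analysed here, and its part in these shares was not tested.

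At the 9 outermost starts with 30 or more CG and an adriamycin peak the folds were 3.85 to 6.99. The median of all 221 peaks was 4.91. Of the 9, 7 had no untreated peak, near the 73.3% of the 221 and 65.6% of the whole adriamycin list without one. E130102H24Rik, whose promoter is shown above, had the most CG, with a summit 146 bp upstream of its start, a fold of 5.04 and 13 fragments at the summit in adriamycin cells and no overlapping untreated peak. At 9430091E24Rik the summit held 15 fragments in adriamycin and 15 in untreated cells, with folds of 4.85 and 4.49. At 2310034G01Rik it held 11 in adriamycin and 11 in untreated cells, with folds of 3.85 and 4.11. These are the 2 dense starts with a peak in both libraries. The other 6, Gm9530, Gm38882, 5730522E02Rik, 4930563M20Rik, Gm46840 and 9330159M07Rik, had adriamycin folds of 4.31 to 6.99 and no untreated counterpart. The fold is the authors' peak caller's ratio of fragments at the summit to local background, with 1 added to each; it ranks peaks within a library, and a difference between the folds of 2 libraries shows no change.

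Peaks at lncRNA ends had lower folds than other peaks outside protein-coding genes but as many fragments at the summit. The 221 adriamycin peaks had a median fold of 4.91 (quartiles 4.37 and 5.66, range 3.01 to 34.6) and a median of 13 fragments at the summit (quartiles 11 and 17), the same as the 13 (quartiles 11 and 17) of the 7016 other peaks outside protein-coding genes. Median fold was 5.10 over the whole adriamycin list, 5.56 for those 7016 peaks and 4.79 for the 3324 peaks at protein-coding ends. The 72 untreated peaks had a median fold of 5.10 and 15 fragments, against 5.56 and 14 for the 3581 other untreated peaks outside protein-coding genes. Local background was 5 or more times the genome-wide value at 9 of the 221 adriamycin peaks (4.07%), against 1.62% of the whole list. The median distance of an adriamycin summit was 430 bp to its lncRNA end and 28338 bp to the nearest protein-coding end, and peaks had a median width of 274 bp.

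The strongest peaks were present in both libraries. Gm41331 on chromosome 15 held the peak of highest fold in the whole adriamycin list. Its summit lay 26 bp inside the annotated gene at its start and 59 bp upstream of the listed start printed above. The peak had 236 fragments (interval 207 to 268) and a fold of 34.6 in adriamycin cells. In untreated cells it had 218 fragments (interval 190.0 to 249) and a fold of 33.0. The printed bases hold 3 CG, the median for all lncRNA starts, and a TATAAA. The peak's background was 5.68 times the genome-wide value.

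Gm51701, on chromosome 9 and 37399 bp from the chemokine receptor gene Ccr1, had the widest peak, 1218 bp. It held 233 fragments in adriamycin and 261 in untreated cells, with folds of 12.4 and 11.9. Local background there was 17.3 times the genome-wide value. Gm40034 on chromosome 2 had a peak at its far end, with 128 fragments in adriamycin and 148 in untreated cells and folds of 14.2 and 13.7; its background was 7.86 times the genome-wide value. Against each library's background the fragment numbers of these 2 peaks were nearly equal, with scaled ratios of adriamycin to untreated of 1.04 for Gm51701 and 1.00 for Gm40034.

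The other 7 of the 10 peaks with the highest fold had backgrounds below that limit. Gm39123 on chromosome 8 had 51 fragments in adriamycin and 36 in untreated cells, 571 bp inside its far end. Gm35407 on chromosome 3 had 36 in adriamycin and 30 in untreated cells, 194 bp upstream of its start. Gm41042 on chromosome 13 had 33 fragments (interval 22.7 to 46.3) in adriamycin and 16 (interval 9.15 to 26.0) in untreated cells, 5 bp from its start, and folds of 10.8 and 6.07. This was the largest scaled ratio of the shared peaks, 2.39. The intervals given are of fragment numbers before scaling, and they overlap. No interval was computed for the scaled ratio. Gm33727, Gm40237, Gm30645 and Gm13165 had adriamycin folds of 8.54 to 10.4 and untreated folds of 7.08 to 9.33. All 10 strongest peaks belonged to predicted genes for which no role is given here.

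Of the 221 adriamycin peaks, 59 overlapped an untreated peak by at least 1 bp (26.7%, interval 21.0 to 33.0) and 162 did not. Over the whole adriamycin list 34.4% of peaks overlapped an untreated peak and 65.6% did not. The share was 42.1% (interval 40.9 to 43.2) for other peaks outside protein-coding genes and 27.2% (interval 25.7 to 28.7) for peaks at protein-coding ends. Seen from the untreated list, 59 of 72 peaks (81.9%, interval 71.1 to 90.0) overlapped an adriamycin peak, near the 79.7% of that whole list.

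Overlap went with strength. Adriamycin peaks at lncRNA ends with a counterpart had a median fold of 5.83, and those without one 4.67. Among peaks of fold 5.5 and above 37 of 64 overlapped (57.8%, interval 44.8 to 70.1), against 61.2% of other peaks outside protein-coding genes and 51.9% at protein-coding ends. In the range 4.5 to 5.5 it was 11 of 83 (13.3%, interval 6.81 to 22.5), against 23.9% (interval 22.1 to 25.9) and 24.7% (interval 22.4 to 27.2). Below 4.5 it was 11 of 74 (14.9%, interval 7.66 to 25.0), against 18.9% and 12.6%. Only in the range 4.5 to 5.5 did the value of either other class lie outside the interval of the lncRNA ends.

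**Figure D4:**
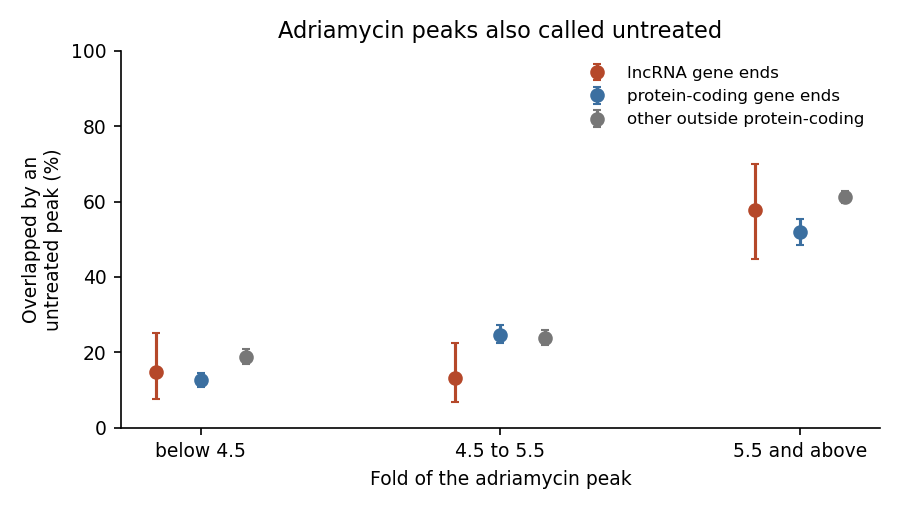
Percent of adriamycin peaks overlapped by an untreated peak (vertical axis, with exact 95% intervals) in 3 ranges of the adriamycin fold (horizontal axis), for peaks at lncRNA ends, at protein-coding ends and elsewhere outside protein-coding genes. In all 3 classes the share is highest at folds of 5.5 and above, 57.8% at lncRNA ends.

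In the 59 overlapping pairs the summits were a median of 42 bp apart, and within 200 bp of each other in 57. The pairs hold 58 untreated peaks, since 1 untreated peak at Gm13165 spans both adriamycin peaks of that gene. Median fragment numbers were 17 in adriamycin and 15 in untreated cells. Dividing each by the library's genome-wide background, 1.03 fragments for adriamycin and 1.19 for untreated, gave a median ratio of adriamycin to untreated of 1.26 (quartiles 1.02 and 1.49). It was above 1 in 49 of 59 pairs (83.1%). Over all 5584 shared peaks the median was 1.31 and 81.3% were above 1, so lncRNA ends were near the whole list. The ratio ran from 0.733 at Gm52805, with 12 fragments in adriamycin and 19 in untreated cells, to 2.39 at Gm41042.

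**Figure D5:**
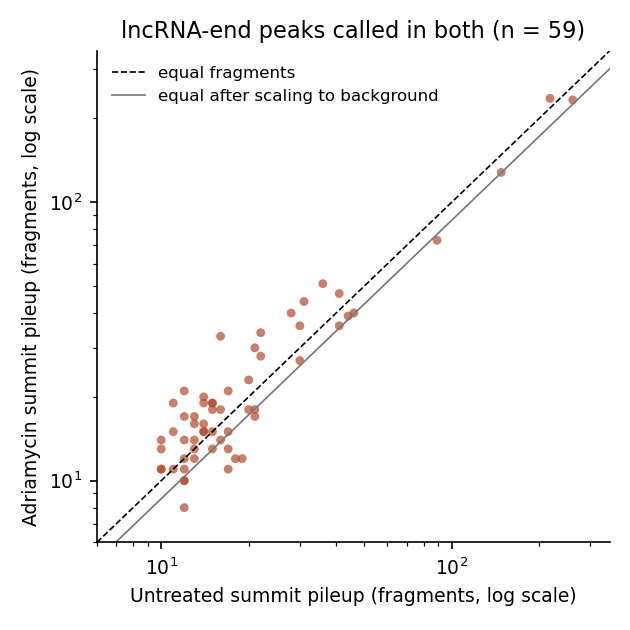
Fragments at the summit in adriamycin cells (vertical axis, log scale) against fragments at the overlapping summit in untreated cells (horizontal axis, log scale) for the 59 overlapping pairs at lncRNA ends, 1 point each. The dashed line marks equal fragment numbers and the grey line equal numbers after scaling to background; 49 points lie above the grey line.

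Distances to the nearest untreated summit were taken for the 162 adriamycin peaks without a counterpart. None are given here for other adriamycin peaks, so the distances do not set lncRNA ends apart. An untreated summit lay within 1000 bp of 4 and within 10000 bp of 8 of the 162. Of the 162, 89 had none within 100000 bp, and the median distance was 122815 bp. These peaks held 8 to 26 fragments, with a median of 13. The untreated peaks at lncRNA ends held as few as 8. Absence from the untreated list does not show absence of DPPA2, since fragments at unlisted sites were not analysed here.

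The strongest of them was at Gm5636 on the X chromosome, 616 bp inside the gene from its start and 373445 bp from the nearest protein-coding end, that of Smarca1, a chromatin remodelling ATPase. It had 16 fragments (interval 9.15 to 26.0) and a fold of 8.38 over a background at the genome-wide value. The nearest untreated summit was 353963 bp away. Gm28167 had 21 fragments and a fold of 7.33, 316 bp inside its start, and Gm40017 had 21 fragments and a fold of 7.28, at 467 bp inside its start. 5730522E02Rik, one of the CpG-dense starts, had 18 fragments and a fold of 6.99, with the nearest untreated summit 1152581 bp away. The other 6 of the 10 highest were at Gm46796, Gm34554, Gm52517, Gm40079, Gm34026 and Gm20744, with folds of 6.21 to 6.86 and 13 to 21 fragments. Gm34554 lies on chromosome 12, 317940 bp from Rtl1, an imprinted gene of retrotransposon origin.

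Of the 72 untreated peaks, 13 had no adriamycin counterpart. The strongest was at Gm33458 on chromosome 2, 501 bp inside its start, with 14 fragments and a fold of 6.84 in untreated cells. Gm20110 followed with 16 fragments and a fold of 6.54, then Gm36303 with 13 and 6.39, Gm51459 with 15 and 4.88, and A930001A20Rik with 10 and 4.87. At Gm51459 an adriamycin summit lay 318 bp away without overlap.

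Lists of lncRNA genes with known roles were short, and their counts are a description: of all reachable lncRNA genes 2.30% had an adriamycin and 0.770% an untreated peak, under which most of these lists would hold none. For each list the number of genes that the rule could reach is given. None of 5 X inactivation lncRNAs, 4 imprinted, 12 developmental and 17 snoRNA host genes had a peak of either library at an end under the rule. Among 9 lncRNAs linked to p53 or DNA damage, none had one. Of 23 lncRNAs of embryonic stem cells, Tunar alone had an adriamycin peak, and none an untreated peak. At Tunar the adriamycin summit lay 483 bp inside the annotated gene and 84 bp downstream of a start listed by RefSeq, just beyond the 300 bases printed above. It held 12 fragments (interval 6.20 to 21.0) with a fold of 3.78, and untreated cells had no summit nearer to the gene than 208102 bp. Of 13 microRNA host genes, Mir1a-1hg, host of a muscle microRNA, had an untreated peak and no adriamycin peak. That peak, 765 bp inside the start of Mir1a-1hg, held 13 fragments with a fold of 4.17. Its summit was nearer, at 484 bp, to an end of another lncRNA gene, B230312C02Rik. Of 118 genes named for lying opposite a coding gene, Zfp652os alone had an adriamycin peak under the rule, of 18 fragments and a fold of 6.17. None had an untreated peak under the rule. The rule leaves out peaks at or inside coding genes, and many genes so named lie there. Without that limit, 18 of all 212 such genes had an adriamycin and 7 an untreated summit within 1000 bp of an end.

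Without the predicted genes, whose names are Gm or LOC and a number, 40 adriamycin and 8 untreated peaks met the rule. Of the 40, 3 overlapped an untreated peak (7.50%, interval 1.57 to 20.4). The share was 26.7% of the 221, which include the 40, and 34.4% of the whole adriamycin list. The 3 were at 2310034G01Rik, 9430091E24Rik and Rps18-ps4. Median fold was 4.66 for the 40 peaks and 4.91 for all 221. Among the 221, 13.3% overlapped at folds of 4.5 to 5.5 and 14.9% below 4.5, both inside the interval of the 40. At folds of 5.5 and above it was 57.8%, outside that interval. In that range Rps18-ps4 had a counterpart. The other such peaks of the 40, at 5730522E02Rik, Zfp652os, C230057M02Rik, C86187 and 9330159M07Rik, had folds of 5.51 to 6.99 and no counterpart. Whether the lower share goes with the names or with the lower folds was not tested. Mexis, known in mouse macrophages as a lncRNA that aids expression of the cholesterol transporter gene Abca1, had 10 fragments and a fold of 4.10 in adriamycin cells and no untreated peak; it was chosen for its name after its values were seen.

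In 6 genes there were 2 adriamycin peaks each: Gm10863, Gm13165, Gm30645, Gm36023, Gm40034 and Gm40843. Conversely 9 adriamycin peaks lay at ends of 2 lncRNA genes. In 3 of these the peak was at the starts of a pair transcribed from opposite strands: 1700031P21Rik with Gm35239, 9330159M07Rik with Gm26611, and Gm11264 with Gm5860. The peak of Gm11264 and Gm5860 had 19 fragments in adriamycin and 11 in untreated cells, a scaled ratio of 2.00; the other two had no counterpart. Within 1000 bp of the 221 summits lay 1 snRNA and 1 tRNA gene (0.452% each, against 0.0570% and 0.0855% of the 7016 other peaks outside protein-coding genes). No microRNA or snoRNA gene lay there, against 0.0855% and 0.299% of those other peaks, shares under which 221 peaks would be too few to show a difference. A pseudogene lay near 13 (5.88%), against 5.93% of other peaks outside protein-coding genes.

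At the limit of the rule, the adriamycin summits just inside were at Gm51690 (980 bp, fold 5.03), Gm42262 (975 bp, fold 7.75) and Gm29856 (970 bp, fold 3.75). Those just outside were near C230057M02Rik (1008 bp, fold 5.10), Gm38930 (1016 bp, fold 3.95) and Gm31369 (1024 bp, fold 4.85).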

How the data were processed

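DPPA2 ChIP-seq was measured in 2 libraries, 1 after adriamycin and 1 untreated, grouped by their labels. Per the submitters' processing notes, the build was mm10 and the tools were MACS3 3.0.0b1, Bowtie2 2.5.1, deepTools 3.5.1, FastQC 0.12.1 and SAMtools. Each library has its own peak list; how peaks were called, and whether against an input, is not given in the sources used here. The deposited fold is the authors' ratio of the summit over local background, and −log10 p and −log10 q, also deposited, are for that summit, with a lowest −log10 q of 1.30 for adriamycin and 1.33 for untreated peaks. The deposited score is 10 times −log10 q, and the deposited offset is the distance in bp from peak start to summit.

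Analysis was limited to chromosomes 1 to 19, X and Y, which left out 142 adriamycin and 126 untreated peaks. Read totals are unknown. The fragments at a summit were recovered as the whole number and local background that give both the fold, with 1 added to each, and the −log10 p within 0.001; this held for 99.9% of peaks in either list. The genome-wide background, the lowest recovered, was 1.03 fragments for adriamycin and 1.19 for untreated. The recovery was tested on simulated data, and the rule and the overlap on small made-up cases. Taking the lowest recovered background as the genome-wide value was not tested.

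Gene positions, biotypes and promoter sequences came from RefSeq tables of GRCm38.p6, the same assembly as mm10; strand was taken from the promoter table and known for 9533 of 12727 lncRNA genes. Territory was counted base by base. Overlap meant at least 1 bp. The tools were scipy 1.17.1, pandas 2.3.3, numpy 2.4.6 and matplotlib 3.10.9 under Python 3.11.15.

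Members and gene lists were chosen with earlier results of these data known. Named genes are the 10 members of highest fold, the 10 of highest fold without an untreated counterpart, members from 8 lists of lncRNAs, the 3 on either side of the distance limit, and genes with most peaks. The CpG-dense starts, the unshared untreated peaks, the extremes of the pairs and the opposite-strand pairs were chosen after their values were seen. Alternatives were other windows, thresholds, list lengths, limits on background and overlap, and leaving out predicted genes.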

Additional observations from a re-analysis of the deposited data

How the results depend on the processing

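No paired analysis was possible because each group had 1 library. Alternatives were tried 1 at a time; those on territory ratios and on CpG-rich, start and far-end shares were chosen after seeing the data. In 47 of 84 cases the value moved by less than its interval or by less than 1.5 times for a count. In the other 37 it moved as follows. Narrower windows, stricter thresholds, a shorter list and fewer genes lower counts of peaks and genes by construction, and a wider window raises them. Stricter thresholds and a shorter list also lower shares of starts with a peak, and a fold limit raises the median fold. The cause of the other moves was not tested. A window of 500 bp kept 132 adriamycin peaks at 132 genes and 46 untreated peaks, with an adriamycin territory ratio of 1.81. A window of 2000 bp gave 118 untreated peaks and an adriamycin ratio of 1.20. Asking for q of at most 1e-05 left, by construction, fewer peaks: 107 adriamycin at 110 genes and 38 untreated, a median adriamycin fold of 5.67, an adriamycin ratio of 1.27, 5.08% of CpG-rich and 0.695% of other starts with an adriamycin peak, and 0.226% of other starts with an untreated peak. Asking for a fold of at least 5 left 100 adriamycin peaks at 102 genes and 38 untreated peaks, a median fold of 5.71, ratios of 1.08 adriamycin and 0.759 untreated, 0.832 at far ends for adriamycin, 4.66% of CpG-rich and 0.678% of other starts with an adriamycin peak, and 0.243% of other starts with an untreated peak. With lists of equal length the 82 adriamycin peaks at 84 genes had a median fold of 6.05, 48.8% overlapped an untreated peak, the ratio was 1.14, and 3.81% of CpG-rich and 0.556% of other starts had an adriamycin peak, beside 3.39% and 0.556% with an untreated peak. Without predicted genes 40 adriamycin peaks at 40 genes and 8 untreated peaks were left, with 7.50% overlapping, a median fold of 4.66 and an untreated ratio of 0.636. The ratio within 250 bp of starts was 2.98 to 3.86 for adriamycin and 1.98 to 3.01 for untreated summits under the thresholds, equal length and background alternatives; at a fold of at least 5 the untreated interval, 0.906 to 3.75, held 1.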

Other observations

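Some lncRNA genes had a peak at or near an end that the rule leaves out. Tug1, from the list of lncRNAs linked to p53, had an adriamycin peak of 13 fragments (interval 6.92 to 22.2) and a fold of 4.67, 467 bp inside its start and 842 bp from an end of the coding gene Morc2a, with no untreated peak overlapping it. Xist, which silences an X chromosome in female cells, had an adriamycin summit 1095 bp inside its start, beyond the limit of 1000 bp, with 8 fragments (interval 3.45 to 15.8), a fold of 4.44 and no untreated counterpart. It was looked at after its value was seen.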
